A study of Mus musculus with 20 samples.

Results

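The collagen chain genes are the genes whose products fold into the collagen triple helix. They were taken as every row of the gene table whose symbol has the form Col, a type number, the letter a and a chain number. The rule found 44 genes among 29956 gene rows. Of these, 31 reached 10 counts in at least 4 of the 20 libraries and were tested, together with 13639 genes in all. The other 13 (Col3a1, Col5a2, Col24a1, Col4a1, Col4a6, Col6a1, Col6a2, Col6a4, Col6a5, Col6a6, Col13a1, Col22a1 and Col25a1) did not reach that count, and their highest value in any library was 0.462 TPM, a transcript level scaled for transcript length and library size. By class, 8 of 11 fibrillar chains were tested, 6 of 8 chains of basement membranes and 17 of 25 other chains.

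The cells were melb-a, a mouse melanoblast line with the genotype given as wild type. Melanoblasts are the embryonic precursors of the pigment-forming melanocytes. Polyadenylated RNA was sequenced in 20 libraries of 5 groups, and the design text calls the 4 of each group independent replicates. Parental cells received no virus. The other groups carried a lentiviral short hairpin RNA, against luciferase (shLuciferase), of scrambled sequence (shScramble), or with Hira as its target (shHIRA I, shHIRA II). The HIRA protein places histone H3.3 on DNA outside replication. All groups share this 1 line and a medium with 10% serum, SCF and Fgf2; the hairpin groups were in addition exposed to virus and polybrene for 16 h and selected in puromycin. No time after infection is given in the labels. The shLuciferase and shScramble libraries are called the control hairpins here, and a fold change against them is taken against the mean of both groups.

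Collagens are trimers of chains wound around each other, each chain built of a repeat that begins with glycine. Fibrillar collagens are cut by procollagen proteases outside the cell and align into the banded fibrils of dermis, bone and cartilage. Type IV chains form the sheet-like network of basement membranes, and the remaining chains decorate fibrils, form beaded filaments or anchoring fibrils, or span the cell membrane. In skin, melanocytes sit on a basement membrane, and pigment cells in culture meet the matrix that they and the serum provide.

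Depth lay between 15 and 20.7 M counts a library (M, 1000000), and the share of counts on mitochondrial genes from 1.23% in shHIRA I replicate 3 to 9.96% in a shLuciferase library. It was 2.88% to 4.71% in the shHIRA II libraries, 6.43% to 9.96% with shLuciferase, 7.28% to 9.75% with shScramble and 5.5% to 8.88% in parental cells. The shHIRA II range overlaps none of these. A fit with this share as a covariate therefore cannot fully separate it from the shHIRA II label. The targeted gene was lower with shHIRA I alone. Hira stood at 19.6 to 32.9 TPM in the shHIRA I libraries, at 36.1 to 57.8 TPM in the 8 control hairpin libraries, at 44.9 to 62.8 TPM in parental cells and at 35.1 to 50.4 TPM in the shHIRA II libraries. The log2 fold change against the control hairpins was -1.05 ± 0.14 (SE) for shHIRA I, with an adjusted p of 5.14e-05, and -0.19 ± 0.14 for shHIRA II, with an adjusted p of 0.307. The latter group is therefore called by its label, and a direction given for it is not a direction under a measured loss of Hira. The melanoblast list gave summed levels of 2430 to 4220 TPM over the parental and control hairpin libraries, with Mitf, Kit, Dct, Tyrp1 and Mlana among its abundant members. It gave 912 to 2910 TPM with shHIRA I and 624 to 1010 TPM in the shHIRA II-labelled libraries. Of its 9 markers Ednrb stayed below 0.5 TPM in every library. Sox10 ranged from 0.063 to 11.2 TPM in parental cells (mean 2.85, SD 5.54) and was at most 0.0542 TPM with shLuciferase. By group mean, 8 of the 9 reached 1 TPM in parental cells and with shScramble, and 7 in the other groups.

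The annotated starts of a pair of chains that moved apart in these data, Col4a3 and Col4a4, lie 72 bases from each other on opposite strands. The stretch is shown because both genes start from it while Col4a3 held 83% to 97.7% of their summed TPM over the libraries. It is written on the minus strand of GRCm38.p6 (RefSeq table), chr1:82586820-82586950, with 30 transcribed bases of each gene in lower case and the 71 bases between the starts in capitals. The first lower-case run is the reverse complement of the beginning of Col4a3, and the last is the beginning of Col4a4.
Col4a3 and Col4a4: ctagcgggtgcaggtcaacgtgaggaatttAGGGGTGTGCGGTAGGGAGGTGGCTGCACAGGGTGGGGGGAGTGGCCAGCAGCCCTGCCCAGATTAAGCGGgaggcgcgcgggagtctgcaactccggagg

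The 250 bases before the RefSeq starts of Col1a2 and Col5a1 are shown for a second contrast, since Col1a2 was higher with shHIRA I and lower in the shHIRA II-labelled libraries, and Col5a1 was higher in both. They come from the plus strand of GRCm38.p6 at chr6:4505368-4505617 and chr2:27886175-27886424. Capitals mark matches to CCAAT or to GGGCGG (the GC box), searched on both strands.
Col1a2: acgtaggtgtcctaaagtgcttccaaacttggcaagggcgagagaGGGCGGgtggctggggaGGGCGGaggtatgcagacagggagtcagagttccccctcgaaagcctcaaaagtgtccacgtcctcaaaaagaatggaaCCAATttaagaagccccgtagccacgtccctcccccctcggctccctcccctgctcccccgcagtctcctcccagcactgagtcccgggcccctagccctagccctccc
Col5a1: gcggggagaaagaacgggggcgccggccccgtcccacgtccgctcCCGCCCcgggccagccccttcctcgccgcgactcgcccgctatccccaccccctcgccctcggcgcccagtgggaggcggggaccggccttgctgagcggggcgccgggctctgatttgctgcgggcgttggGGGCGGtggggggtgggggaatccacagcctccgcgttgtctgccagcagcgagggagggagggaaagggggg

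Both stretches hold the GC box 2 times, Col1a2 also holds CCAAT 1 time, and neither holds TATAAA or TGANTCA (the AP-1 motif). Their GC content was 62% for Col1a2 and 76.4% for Col5a1. Another CCAAT match of Col1a2, on the other strand, begins at its RefSeq start, just past the stretch shown. In GENCODE the Col1a2 gene begins further upstream, at 4504814, so that this stretch lies within the annotated gene. The RefSeq table held 300-base promoters, 250 before and 50 after a start, for 24 of the 31 tested members (26 promoters). Among these, 57.7% held the GC box against 35.7% of all 32851 promoters, 38.5% held CCAAT against 37.4%, 11.5% held TATAAA against 13.6%, and 0% held TGANTCA against 7.81%. These matches describe letters in a window and no binding was measured.

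Before any knockdown, the melanoblasts expressed mostly collagens other than the classical fibril formers. Col16a1, a fibril-associated chain, had the highest level in each of the 5 groups, with 108 ± 9.88 TPM in parental cells (SD, n = 4), 40.7% of the summed TPM of all 44 chains. Col14a1, another fibril-associated chain, followed with 41.3 ± 12 TPM, then Col15a1, a multiplexin of basement membrane zones, with 20.2 ± 7.21 TPM, and the type IX chains Col9a3 (16.5 ± 5.5 TPM) and Col9a1 (16.1 ± 3.96 TPM). The differences from Col15a1 to Col9a1 were smaller than the SD of Col15a1. The summed TPM of all chains was 264 ± 18.5 in parental cells, 253 ± 88.3 with shLuciferase, 213 ± 18.4 with shScramble, 325 ± 84.7 with shHIRA I and 196 ± 19.4 in the shHIRA II-labelled libraries.

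By class, the fibrillar sum stood apart in 1 group. It was 25.3 ± 4.56 TPM in parental cells, 29.2 ± 7.93 with shLuciferase, 23 ± 2.5 with shScramble, 66.6 ± 15.5 with shHIRA I and 31 ± 3.63 in the shHIRA II-labelled libraries. The 4 shHIRA I libraries lay at 64.8, 81.8, 74 and 45.8 TPM, above the highest library of any other group, 40.7 TPM. The basement membrane sum overlapped between all groups, with means from 24.5 TPM (labelled shHIRA II) to 34.3 TPM (shLuciferase), and so did the type IV chains taken alone, with means from 9.69 to 14.5 TPM. The sum of the other chains was 208 ± 11 TPM in parental cells, 190 ± 79.4 with shLuciferase, 164 ± 15.5 with shScramble, 232 ± 71.2 with shHIRA I and 140 ± 16.5 in the shHIRA II-labelled libraries. No test was made on these sums.

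**Figure D1:**
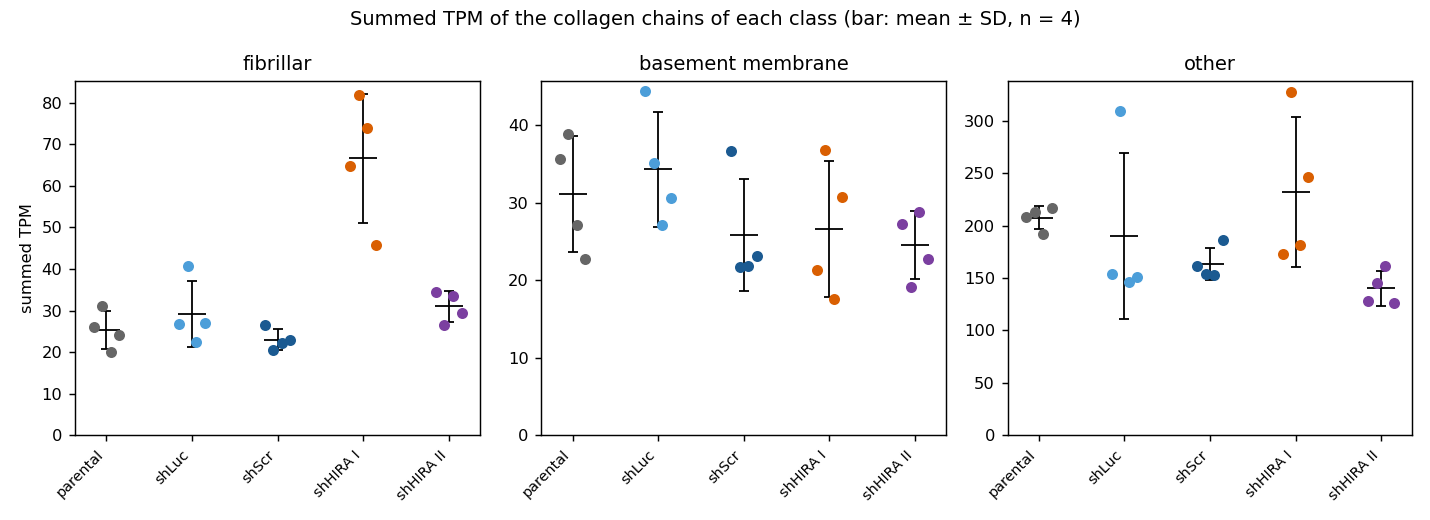
Summed TPM of the fibrillar, basement membrane and other collagen chains (y axis, linear) in each library of the 5 groups (x axis); points are libraries and bars the mean ± SD of 4. The fibrillar sums of shHIRA I lie between 45.8 and 81.8 TPM, above all other libraries, while the basement membrane sums overlap.

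A pair of libraries stood high within their groups for many members. Replicate 2 of shLuciferase had the highest level of its group for 17 of the 31 tested members, and replicate 2 of shHIRA I for 21. The same 2 libraries had the highest sums of their groups for the fibroblast and mesenchyme list (39.4 and 99.3 TPM) and for the smooth muscle and pericyte list (47.1 and 68.5 TPM). Their part in the results was not tested beyond leaving them out, and counts without both are given below.

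Against the control hairpins, 12 of the 31 tested members were higher and 1 lower with shHIRA I at an adjusted p under 0.05. Over all genes tested, 10.8% were higher and 8.8% lower. The median log2 fold change of the tested members was 0.69, and that of all genes 0.05. In the shHIRA II-labelled libraries, 10 members were higher and 5 lower, where 15.7% and 16.6% of all genes were, and the median was 0.36 beside 0.02. The 5 lower became 8 by DESeq2, and 1 with the mitochondrial share as covariate. That share was at most 4.71% in every shHIRA II library and at least 6.43% in every control hairpin library. Without the pair of high libraries the counts were 10 higher and 1 lower for shHIRA I, and 9 higher and 5 lower for shHIRA II. Without replicate 1 of shHIRA II, 2 members were lower there. Both comparisons use the same control libraries. Not every call passed against each control group alone in the same edgeR fit. Against shLuciferase, Col12a1 and Col17a1 with shHIRA I had adjusted p of 0.14 and 0.094. Col5a3 and Col4a4 with shHIRA II had 0.154 and 0.0518 there. Against shScramble, Col16a1 with shHIRA II had 0.0772. Col4a5 and Col8a1 passed the count filter through shHIRA libraries, having fewer than 4 libraries with 10 counts elsewhere, so that these 2 enter the test by the groups in which they may be high.

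The hairpins differed from each other. In shHIRA II minus shHIRA I, 2 members were higher and 10 lower, beside 8.56% and 12.4% of all genes. The median log2 fold change was -0.57 for the tested members and -0.05 for all genes. Leaving out 1 library gave 6 to 12 lower members; the count was 6 without shHIRA I replicate 2 and 6 without shHIRA II replicate 4, and it was 7 without shLuciferase replicate 2 and shHIRA I replicate 2. A fit of the 2 shHIRA groups alone gave 1 higher and 6 lower. Between the control hairpins no member passed (shScramble minus shLuciferase, 0% higher and 0% lower over all genes), and 1 of the 31 had an unadjusted p under 0.05, as did 1.28% of all genes. The tested members still leaned to 1 side there. Of the 31, 25 had a negative log2 fold change, and the median was -0.24, beside -0.01 for all genes. Medians of the shHIRA comparisons stand beside this shift between 2 control groups.

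Set side by side, the members fell into a few patterns. With both hairpins 7 were higher: Col5a1, Col18a1, Col4a2, Col4a4, Col4a5, Col9a1 and Col19a1. Col1a2 was higher with shHIRA I and lower in the shHIRA II-labelled libraries. With shHIRA I but not with shHIRA II, Col1a1, Col6a3, Col12a1 and Col17a1 passed as higher and Col15a1 as lower. In the shHIRA II-labelled libraries but not with shHIRA I, Col2a1, Col5a3 and Col20a1 passed as higher and Col4a3, Col14a1, Col16a1 and Col10a1 as lower. Another 11 passed in neither. The share of all genes in each pattern is not given here, and both comparisons use the same control libraries. These counts are therefore no result about collagens, and Col4a5 passed the count filter only through shHIRA libraries.

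**Figure D2:**
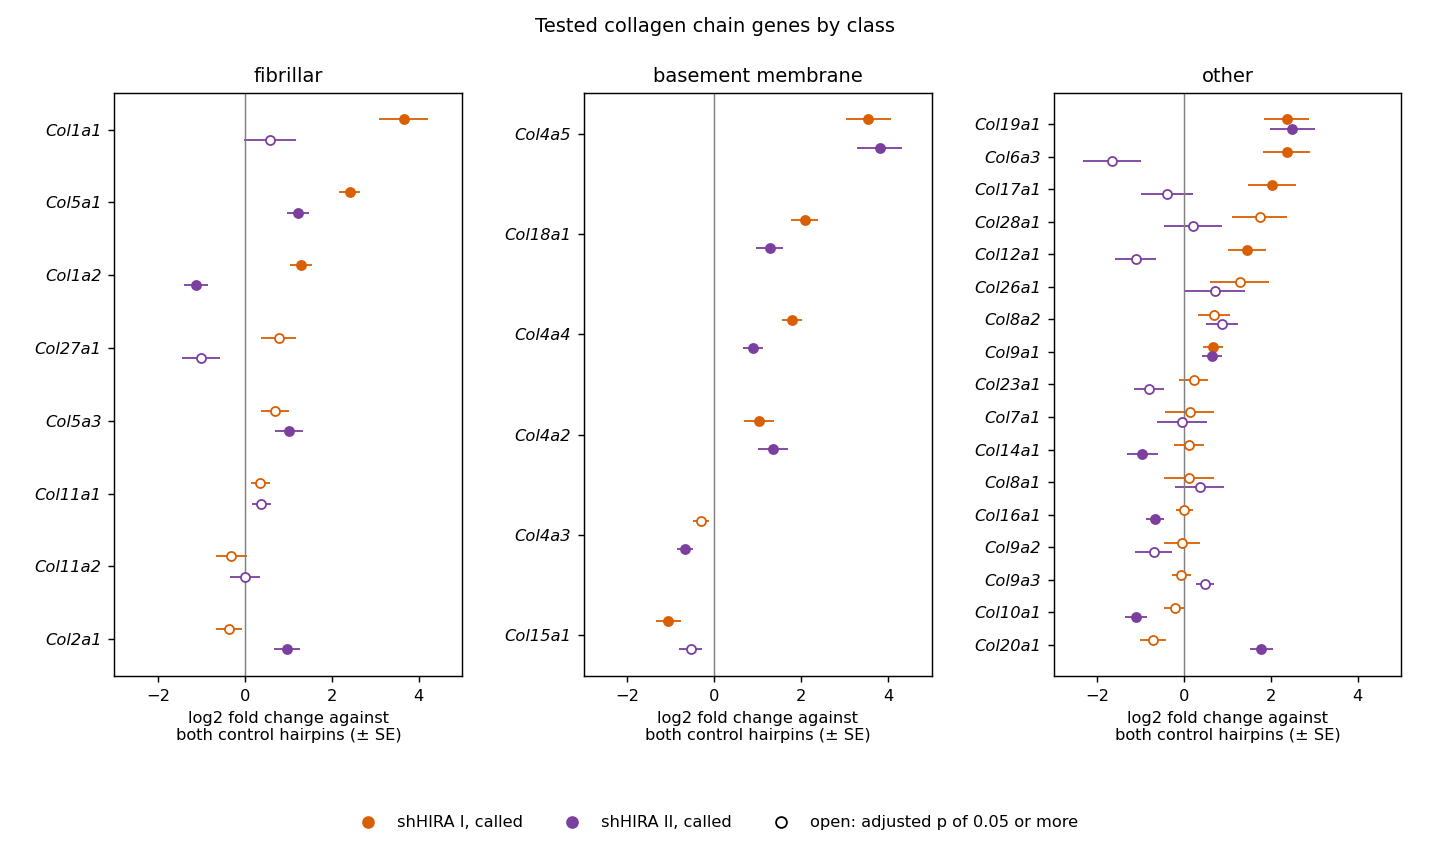
Log2 fold change against the mean of both control hairpins (x axis, ± SE) of the 31 tested collagen chain genes (y axis, by class), with shHIRA I in orange and shHIRA II in purple; filled points have an adjusted p under 0.05. Col1a2 has filled points on both sides of 0, at 1.30 and -1.12, and Col6a3, Col12a1 and Col17a1 are filled for shHIRA I only.

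Among the fibrillar chains, 3 of 8 tested rose with shHIRA I and none fell, beside 10.8% and 8.8% of all genes, and 3 rose and 1 fell in the shHIRA II-labelled libraries, beside 15.7% and 16.6%. Type I collagen, the main collagen of dermis and bone, is made of Col1a1 and Col1a2 chains. Col1a1 (chromosome 11, 94936224 to 94953042, plus strand of GRCm38, protein-coding) was at 0.353, 0.154, 0.103 and 0.105 TPM in parental replicates 1 to 4, at 0.214, 1.6, 0.34 and 0.107 TPM with shLuciferase and at 0.426, 0.0768, 0.0839 and 0.0677 TPM with shScramble. It was at 6.16, 4.42, 3.87 and 1.7 TPM with shHIRA I and at 0.45, 0.492, 0.514 and 0.426 TPM in the shHIRA II-labelled libraries. All 4 shHIRA I libraries were above every other library. Those labelled shHIRA II lay within the range of the controls only through shLuciferase replicate 2 (1.6 TPM). The next highest control was shScramble replicate 1, at 0.426 TPM. Against the control hairpins the log2 fold change was 3.65 ± 0.57 (SE) for shHIRA I, adjusted p 0.000201, and 0.58 ± 0.6 for shHIRA II, adjusted p 0.484. The direct difference was -3.07 ± 0.72, adjusted p 0.00533. Counts of Col1a1 were 8.97 to 150 with shLuciferase and 5.38 to 37.2 with shScramble. The changes against the control hairpins thus rest on few counts in part of the control libraries.

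Col1a2 (chromosome 6, 4504814 to 4541544, plus strand) moved in opposite directions. Its levels were 6.1, 9.94, 7.15 and 10.5 TPM in parental cells, 8.8, 9.29, 6.92 and 7.52 TPM with shLuciferase and 6.95, 5.45, 6.72 and 6.94 TPM with shScramble. They were 9.99, 20.8, 27.7 and 14.6 TPM with shHIRA I, and 2.09, 4.11, 4.65 and 3.16 TPM in the shHIRA II-labelled libraries. The shHIRA I libraries were above all 8 control libraries and overlapped only the highest parental library, and those labelled shHIRA II were below every library of the other groups. The fitted log2 fold changes were 1.30 ± 0.25 (SE, adjusted p 0.0013) and -1.12 ± 0.28 (adjusted p 0.00496), and the direct difference -2.42 ± 0.32 (adjusted p 6.69e-05). Without shHIRA I replicate 3, the library of lowest mitochondrial share, the first became 0.84 with an adjusted p of 0.00839. Against parental cells the changes were 1.02 ± 0.31 and -1.40 ± 0.31, with adjusted p of 0.027 and 0.00252. The 2 chains were far from equal in level: Col1a1 made up 2.08% of the summed TPM of the pair in parental cells and 18.1% with shHIRA I, and 11.8% in the shHIRA II-labelled libraries.

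Type V collagen, whose Col5a1 chain starts the assembly of fibrils, was present as Col5a1 with little of its partner. Col5a1 (chromosome 2, 27886425 to 28039514, plus strand) stood at 3.84, 5.54, 3.51 and 5.35 TPM in parental cells, at 4.34, 11.4, 3.79 and 4.22 TPM with shLuciferase and at 5.82, 2.61, 3.32 and 4.22 TPM with shScramble. With shHIRA I it stood at 38.3, 22.8, 27.9 and 20.6 TPM, and in the shHIRA II-labelled libraries at 13.4, 8.9, 12.9 and 12.9 TPM. The shHIRA I libraries were above all others; those labelled shHIRA II were above the parental and control libraries except shLuciferase replicate 2, which was above 1 of them. Relative to the control hairpins, the log2 fold changes were 2.41 ± 0.25 (SE, adjusted p 4.23e-06) and 1.22 ± 0.25 (adjusted p 0.00135), and they differed by -1.19 ± 0.31 (adjusted p 0.0094). Col5a2, the chain that pairs with Col5a1 in the common form of type V, was not tested; its group means were 0.00225 to 0.114 TPM, with a highest library of 0.391 TPM.

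Col5a3 encodes a further type V chain. It was at 0.329 to 0.528 TPM in parental cells, at 1.08, 0.952, 0.49 and 0.577 TPM with shLuciferase and at 0.804, 0.368, 0.397 and 0.448 TPM with shScramble. It was at 0.763, 2.36, 0.677 and 0.635 TPM with shHIRA I and at 1.72, 0.897, 1.35 and 1.42 TPM in the shHIRA II-labelled libraries. Of the libraries labelled shHIRA II, 3 were above all controls, and with shHIRA I the second library alone was. The log2 fold change was 1.02 ± 0.32 (SE, adjusted p 0.0186) for shHIRA II, 0.90 with an adjusted p of 0.071 without its replicate 1, and 0.69 ± 0.32 (adjusted p 0.146) for shHIRA I. The direct difference, 0.34 ± 0.38, did not pass (adjusted p 0.574).

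Col2a1, the fibrillar chain of cartilage, was higher in the shHIRA II-labelled libraries than with the control hairpins and than with shHIRA I. Its levels were 3.37, 2.16, 1.35 and 1.45 TPM in parental cells, 2.15, 1.66, 1.52 and 1.89 TPM with shLuciferase and 1.78, 1.56, 2.46 and 1.71 TPM with shScramble. They were 1.39, 0.873, 2.07 and 1.52 TPM with shHIRA I and 5.67, 2.45, 4.06 and 3.26 TPM with shHIRA II. Replicates 1, 3 and 4 of the last group were above all control libraries. Against the control hairpins the log2 fold change for shHIRA II was 0.97 ± 0.29 (SE, adjusted p 0.0144) and for shHIRA I -0.37 ± 0.3 (adjusted p 0.426), with a direct difference of 1.35 ± 0.35 (adjusted p 0.00993). Without shHIRA II replicate 1 the first was 0.74, adjusted p 0.0904, and with the mitochondrial share of each library as a covariate it was 0.47, adjusted p 0.381. The direct difference was 1.36 with an adjusted p of 0.062 in a fit of these 2 groups alone.

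Col27a1, a fibrillar chain of cartilage, differed between the hairpins through 1 library. It was at 4.12, 19.8, 3.62 and 2.73 TPM with shHIRA I and at 2.65, 1.59, 1.96 and 2.06 TPM with shHIRA II, beside 1.96 to 4.93 TPM in parental cells, 3.48, 8.17, 2.83 and 3.34 TPM with shLuciferase and 4.69, 2.89, 2.54 and 3.75 TPM with shScramble. The shHIRA groups do not overlap, but replicate 2 is far above the rest of shHIRA I. The difference of -1.79 ± 0.49 (SE, adjusted p 0.0132) became -0.81 with an adjusted p of 0.123 without that library. Col11a1 and Col11a2, the type XI chains that join type II and type V fibrils, passed in neither comparison. Col11a1 changed by 0.36 ± 0.22 with shHIRA I and 0.38 ± 0.22 with shHIRA II, and Col11a2 by -0.31 ± 0.35 and 0.01 ± 0.35.

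**Figure D3:**
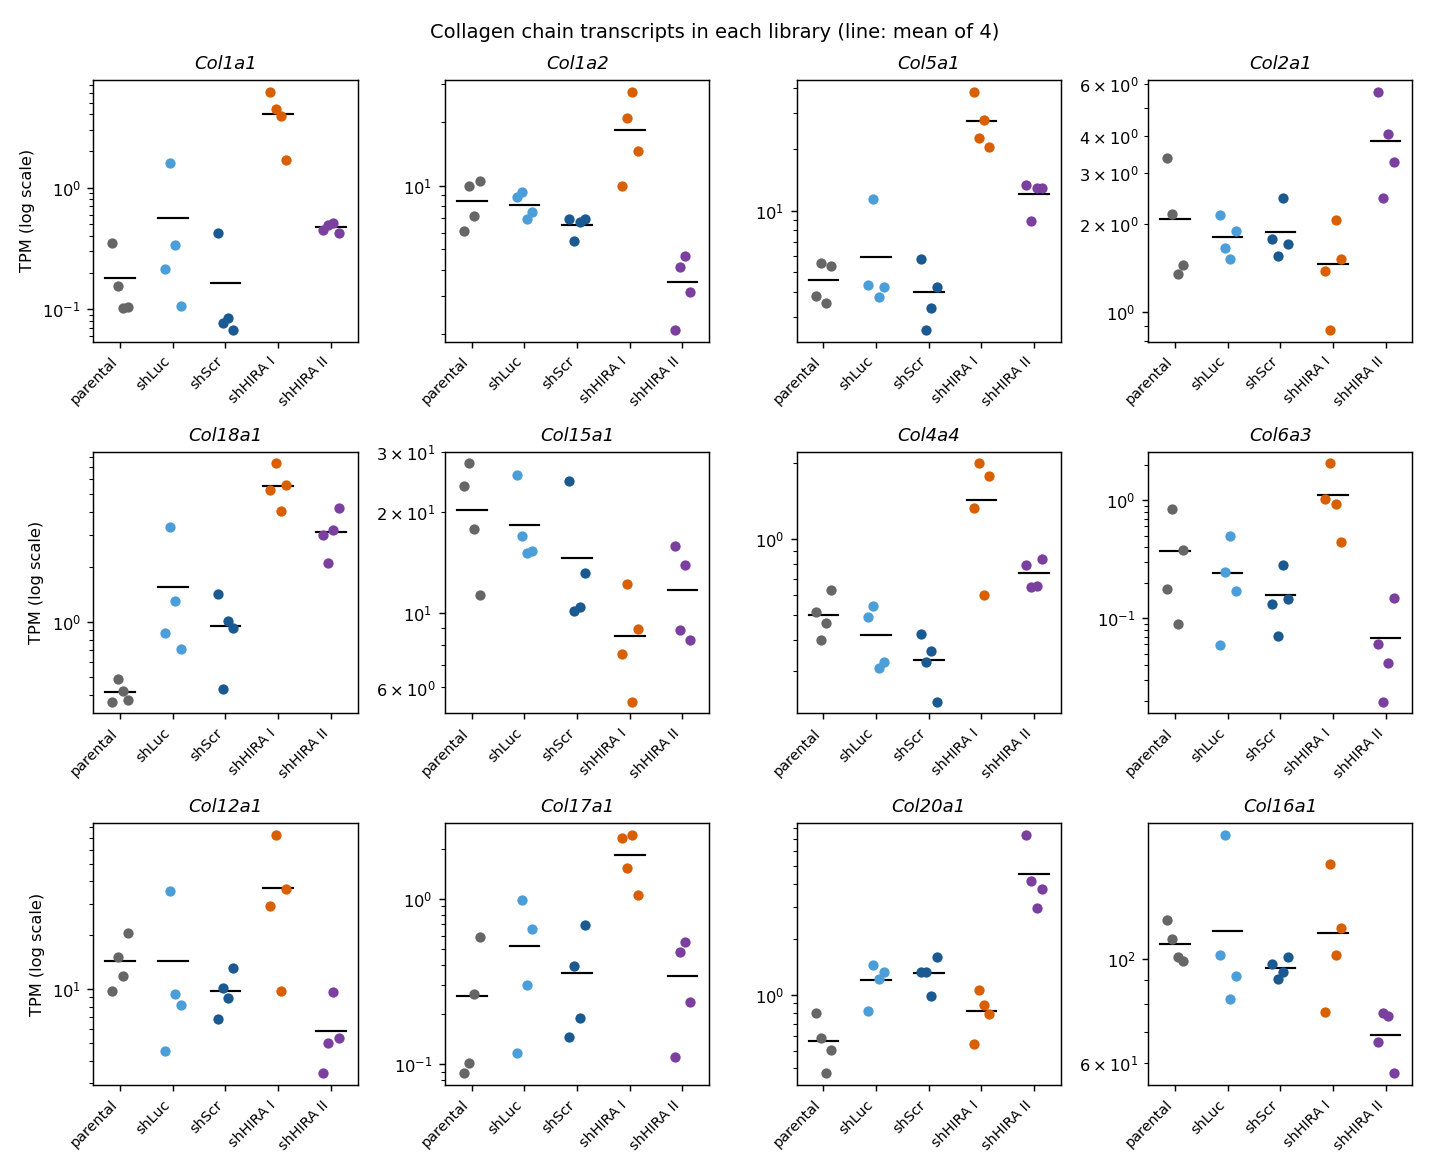
Level of 12 collagen chain genes in each library (y axes, TPM on log scales that differ between panels; x axis, the 5 groups, with shLuc for shLuciferase and shScr for shScramble); points are libraries and lines the mean of 4. Col1a1 and Col17a1 of shHIRA I lie above all other libraries, Col20a1 of shHIRA II does likewise, and Col1a2 splits the shHIRA groups to both sides of the controls.

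Of the 6 tested chains of basement membranes, 4 rose and 1 fell against the control hairpins in each shHIRA comparison. Over all genes, 10.8% rose and 8.8% fell with shHIRA I, and 15.7% and 16.6% did with shHIRA II. The 1 of 6 that fell with shHIRA II is therefore near the share of all genes. Among the 4 that rose in each is Col4a5, which passed the count filter only through shHIRA libraries. It thus entered the test by the groups in which it was high. Its rise is no support for the class. Col18a1, the multiplexin from which endostatin is cut, rose in both. Col18a1 (chromosome 10, 77052178 to 77166548, minus strand) was at 0.367, 0.49, 0.421 and 0.376 TPM in parental cells, at 0.87, 3.3, 1.3 and 0.715 TPM with shLuciferase and at 1.42, 0.429, 1.01 and 0.924 TPM with shScramble. It was at 5.24, 7.34, 4.06 and 5.58 TPM with shHIRA I and at 2.99, 2.1, 3.17 and 4.19 TPM in the shHIRA II-labelled libraries. Each shHIRA I library was above each control library. Those labelled shHIRA II were not, since the libraries at 2.99, 2.1 and 3.17 TPM lay below shLuciferase replicate 2 (3.3 TPM). The fitted log2 fold changes were 2.08 ± 0.31 (SE, adjusted p 0.000124) and 1.27 ± 0.31 (adjusted p 0.0046); the difference between hairpins of -0.81 ± 0.37 did not pass (adjusted p 0.129). For shHIRA II the change was 0.96 ± 0.38 against shLuciferase alone (adjusted p 0.0706) and 1.58 ± 0.38 against shScramble alone (adjusted p 0.00568). Col18a1 was also higher with control hairpins than in parental cells, by 1.46 ± 0.36 (adjusted p 0.0284).

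The other multiplexin, Col15a1, was lower with shHIRA I. It stood at 23.9, 27.8, 17.8 and 11.3 TPM in parental cells, at 25.7, 16.9, 15.1 and 15.3 TPM with shLuciferase and at 24.7, 10.1, 10.4 and 13.1 TPM with shScramble. The levels were 7.53, 12.2, 5.45 and 8.95 TPM with shHIRA I and 15.8, 8.9, 13.9 and 8.28 TPM with shHIRA II. Of the shHIRA I libraries, 3 were below all controls and replicate 2 was within their range. Relative to the control hairpins, the log2 fold change was -1.06 ± 0.28 (SE, adjusted p 0.0105) for shHIRA I and -0.55 ± 0.27 (adjusted p 0.124) for shHIRA II, which did not differ past the threshold (0.51 ± 0.31, adjusted p 0.263).

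Type IV chains are encoded in pairs that start from a shared stretch. The genes of a pair were not at like levels here. Col4a3 (chromosome 1, 82586921 to 82722059, plus strand), a chain of the glomerular and other specialised basement membranes, had group means of 7.61 to 13.5 TPM, and its neighbour Col4a4 (82448423 to 82586849, minus strand), which joins the same trimer, means of 0.335 to 1.43 TPM. Col4a3 made up 95% of the summed TPM of the pair in parental cells and 87.5% with shHIRA I.

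Col4a4 rose in both comparisons while Col4a3 did not. Col4a4 was at 0.514, 0.399, 0.468 and 0.628 TPM in parental cells, at 0.495, 0.547, 0.31 and 0.328 TPM with shLuciferase and at 0.421, 0.328, 0.361 and 0.228 TPM with shScramble. It was at 1.33, 2, 0.601 and 1.79 TPM with shHIRA I and at 0.795, 0.646, 0.651 and 0.84 TPM with shHIRA II, all 8 above all 8 control libraries. The log2 fold changes were 1.78 ± 0.23 (SE, adjusted p 3.25e-05) and 0.89 ± 0.23 (adjusted p 0.0074). Their difference, -0.89 ± 0.28 (adjusted p 0.0271), lost its call in 6 of 20 fits without 1 library (each of shHIRA I replicates 2 and 4 and shHIRA II replicates 1 to 4), with adjusted p up to 0.0937.

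Col4a3 was at 10.6, 9.63, 8.23 and 9.81 TPM in parental cells, at 16.8, 13.6, 10.1 and 13.7 TPM with shLuciferase and at 9.62, 10.6, 9.71 and 8.53 TPM with shScramble. It was at 6.48, 13, 7.07 and 13.6 TPM with shHIRA I and at 5.88, 6.09, 10 and 8.45 TPM with shHIRA II. The groups overlap in part. Against the control hairpins the log2 fold change was -0.68 ± 0.19 (SE, adjusted p 0.01) for shHIRA II and -0.31 ± 0.19 (adjusted p 0.27) for shHIRA I. Without shHIRA II replicate 1 the former was -0.56 (adjusted p 0.0549), and with the mitochondrial share as covariate -0.47 (adjusted p 0.171). Exons of an antisense gene, C430014B12Rik, cover 5.65% of the exon bases of Col4a3, and the strand setting of the counting is not given in the sources used here.

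Col4a2, one of the chains of the ubiquitous basement membrane network, overlaps its partner Col4a1 by 22 exon bases on chromosome 8. It was low throughout, at 0.195 to 0.529 TPM in the 12 parental and control libraries, 0.327 to 1.52 TPM with shHIRA I and 0.585 to 1.32 TPM with shHIRA II. The libraries labelled shHIRA II were all above the controls. The fitted log2 fold change was 1.35 ± 0.34 (SE, adjusted p 0.00572) for shHIRA II and 1.02 ± 0.35 (adjusted p 0.0459) for shHIRA I. The second lost its call in 12 of 20 fits without 1 library and fell to 0.56 (adjusted p 0.263) without shHIRA I replicate 2. Col4a1 was not tested, with group means of 0.025 to 0.216 TPM. Col4a5, on chromosome X, was at 0.111 to 0.27 TPM with shHIRA I and 0.105 to 0.235 TPM with shHIRA II, and at 0 to 0.0302 TPM in the other 12 libraries. It had 10 counts or more in 1 shHIRA I library and 3 shHIRA II libraries, and its fitted log2 fold changes of 3.54 ± 0.52 (SE, adjusted p 0.000119) and 3.80 ± 0.52 (adjusted p 3.25e-05) rest on few counts.

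**Figure D4:**
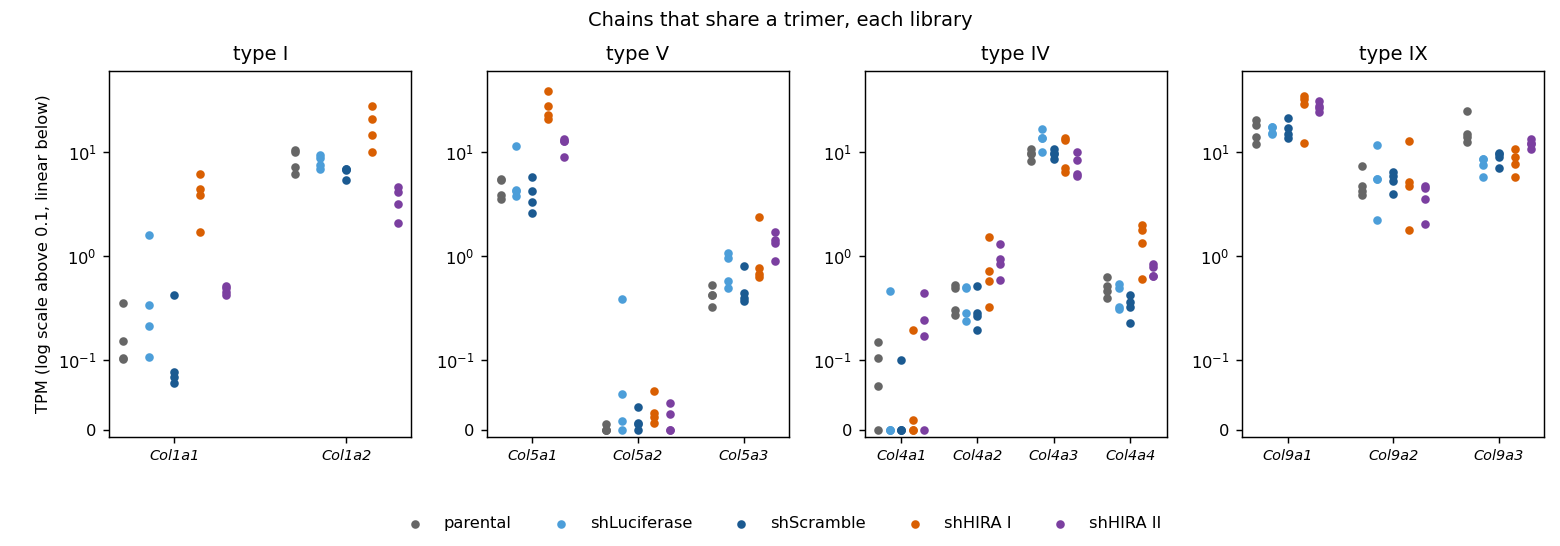
Levels of chains that share a trimer (x axes, chains of types I, V, IV and IX; y axes, TPM, on a log scale above 0.1 and linear below), 1 point per library, coloured by group. Col5a2 and Col4a1 lie at or below 0.391 and 0.462 TPM in every library, with each group mean below that of Col5a1 and Col4a2, and Col1a1 lies below Col1a2 in each group.

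Among the 17 other chains tested, 5 rose and none fell with shHIRA I, and 3 rose and 3 fell in the shHIRA II-labelled libraries. Over all genes the shares were 10.8% and 8.8% for shHIRA I and 15.7% and 16.6% for shHIRA II, so that 3 of 17 in each direction with shHIRA II is near the background. Several of those that rose with shHIRA I were lower with shHIRA II than with shHIRA I. Col6a3 (chromosome 1, 90765923 to 90843971, minus strand), the long chain of the beaded type VI filaments, was at 0.178, 0.838, 0.0896 and 0.381 TPM in parental cells, at 0.0594, 0.246, 0.499 and 0.171 TPM with shLuciferase and at 0.131, 0.0714, 0.284 and 0.145 TPM with shScramble. It was at 1.03, 2.05, 0.923 and 0.44 TPM with shHIRA I and at 0.0605, 0.0197, 0.0419 and 0.148 TPM with shHIRA II. The shHIRA groups do not overlap, and 3 of the shHIRA I libraries were above all others. Relative to the control hairpins, the log2 fold change was 2.36 ± 0.54 (SE, adjusted p 0.00441) for shHIRA I, -1.66 ± 0.67 (adjusted p 0.063) for shHIRA II and -4.02 ± 0.75 (adjusted p 0.00113) between them. Col6a3 had 1.81 to 10.9 counts in the shHIRA II-labelled libraries, so that the last 2 values rest on few counts. Its partners Col6a1 and Col6a2 were not tested, with group means of 0 to 0.176 TPM and 0.0337 to 0.0794 TPM.

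Col12a1, which lies along the surface of type I fibrils, showed a like split. Col12a1 was at 9.8, 15.2, 11.8 and 20.6 TPM in parental cells, at 4.54, 35.2, 9.38 and 8.18 TPM with shLuciferase and at 6.8, 10.2, 8.89 and 13.1 TPM with shScramble. With shHIRA I it was at 29.2, 72.2, 9.76 and 36.2 TPM and with shHIRA II at 3.4, 5.02, 9.64 and 5.37 TPM. Both replicates 2 stood high, and shHIRA I replicate 3 was as low as the controls. With shHIRA I its log2 level rose by 1.45 ± 0.43 (SE, adjusted p 0.0214), and 0.96 with an adjusted p of 0.129 without its replicate 2; with only the compared groups fitted the adjusted p was 0.0652. The difference between hairpins was -2.56 ± 0.54 (adjusted p 0.00272) and kept its call in each fit without 1 library.

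Col17a1 (chromosome 19, 47646344 to 47692094, minus strand) encodes a membrane-spanning collagen of hemidesmosomes; in mouse hair follicles it is needed in the keratinocyte stem cells that support melanocyte stem cells. It was at 0.0878, 0.101, 0.265 and 0.586 TPM in parental cells, at 0.117, 0.985, 0.299 and 0.659 TPM with shLuciferase and at 0.145, 0.394, 0.191 and 0.694 TPM with shScramble. It was at 2.34, 1.53, 2.43 and 1.05 TPM with shHIRA I, above all other libraries, and at 0.111, 0.476, 0.549 and 0.236 TPM with shHIRA II. The rise with shHIRA I was 2.02 ± 0.55 in log2 (SE, adjusted p 0.0133), and 1.69 with an adjusted p of 0.0653 with the mitochondrial share as covariate. The difference between hairpins was -2.41 ± 0.7 (adjusted p 0.0188); without shHIRA II replicate 1 or 4 it was -2.12 or -2.21, with adjusted p of 0.0628 and 0.0589. The 5 keratinocyte markers summed to 3.53 to 9.03 TPM with shLuciferase, 4.12 to 7.95 TPM with shScramble, 2.13 to 6.68 TPM with shHIRA I and 1.14 to 2.45 TPM with shHIRA II. Among them Cdh1 fell with shHIRA I (-1.20 ± 0.34, adjusted p 0.0177), Trp63 was at 1.43 ± 0.58 (adjusted p 0.0907), and Krt5, Krt14 and Epcam stayed below 0.5 TPM in every library. Their part in the Col17a1 values was not tested.

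Col20a1 (chromosome 2, 180986535 to 181018363, plus strand), a fibril-associated chain, moved the other way. Its levels were 0.801, 0.585, 0.376 and 0.503 TPM in parental cells, 0.823, 1.45, 1.22 and 1.34 TPM with shLuciferase and 1.33, 1.34, 0.985 and 1.6 TPM with shScramble. They were 0.54, 1.07, 0.884 and 0.785 TPM with shHIRA I and 7.35, 4.13, 2.97 and 3.76 TPM with shHIRA II. The libraries labelled shHIRA II were above all 16 others. The log2 fold change was 1.78 ± 0.27 (SE, adjusted p 9.83e-05) against the control hairpins and 2.49 ± 0.35 (adjusted p 0.000112) against shHIRA I, and both kept their calls in every alternative run. Exons of an annotated overlapping transcript on the same strand cover 1.54% of its exon bases.

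The abundant Col16a1 was lower in the shHIRA II-labelled libraries. Its levels were 121, 110, 101 and 99 TPM in parental cells, 102, 183, 82.1 and 92.1 TPM with shLuciferase and 97.5, 90.4, 93.8 and 101 TPM with shScramble. They were 76.9, 159, 102 and 116 TPM with shHIRA I and 66.4, 76.6, 75.5 and 57.1 TPM with shHIRA II, below all 16 others. The log2 fold change was -0.67 ± 0.21 (SE, adjusted p 0.0197) for shHIRA II and 0.01 ± 0.2 (adjusted p 0.971) for shHIRA I. The former was -0.62 (adjusted p 0.0621) without shHIRA II replicate 1, -0.53 (adjusted p 0.0869) without its replicate 4, and -0.49 (adjusted p 0.204) with the mitochondrial share as covariate. The difference between hairpins, -0.68 ± 0.24 (adjusted p 0.0456), lost its call in 15 of 20 fits without 1 library.

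Col10a1, a short chain of hypertrophic cartilage, was also lower with shHIRA II, at 0.805, 0.671, 0.607 and 0.563 TPM. It was at 1.98, 2.6, 2 and 1.27 TPM in parental cells, at 1.81, 1.45, 1.29 and 1.26 TPM with shLuciferase, at 1.46, 1.05, 1.08 and 1.57 TPM with shScramble and at 1.38, 1.51, 0.644 and 1.68 TPM with shHIRA I. The shHIRA II libraries were below every control library. Against the control hairpins the log2 fold change was -1.11 ± 0.25 (SE, adjusted p 0.00266), and -0.79 with an adjusted p of 0.0828 with the mitochondrial share as covariate. The difference from shHIRA I, -0.90 ± 0.28 (adjusted p 0.0279), lost its call without shHIRA I replicate 2 or 4 or shHIRA II replicate 3 or 4, with adjusted p of 0.0605 to 0.0937.

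Col14a1, a fibril-associated chain, was at 26.2, 42.7, 40.8 and 55.4 TPM in parental cells, at 11.9, 47.8, 20.1 and 16.5 TPM with shLuciferase and at 19.3, 19.8, 18.6 and 30.5 TPM with shScramble. It was at 17.6, 40.2, 14.2 and 38.2 TPM with shHIRA I and at 5.58, 13.3, 19.4 and 11.7 TPM with shHIRA II. The groups overlap. Its log2 fold change with shHIRA II, -0.96 ± 0.36 (SE, adjusted p 0.0493), lost its call in 13 of 20 fits without 1 library, with adjusted p up to 0.177, and was -0.46 (adjusted p 0.515) with the mitochondrial share as covariate. Against parental cells the change was -1.87 ± 0.41 (adjusted p 0.00241).

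Col9a1, the type IX chain of cartilage fibrils, was higher in both comparisons, close to the threshold. It was at 18.2, 13.8, 11.9 and 20.5 TPM in parental cells, at 17.4, 15.2, 17.4 and 15 TPM with shLuciferase and at 16.9, 15, 13.7 and 21 TPM with shScramble. The levels were 28.7, 12.2, 34.5 and 32.6 TPM with shHIRA I and 24, 26.2, 30.7 and 27.7 TPM with shHIRA II. All shHIRA II libraries and 3 of shHIRA I were above the controls, and shHIRA I replicate 2 was below them. The fitted log2 fold changes were 0.67 ± 0.23 (SE, adjusted p 0.0486) and 0.65 ± 0.23 (adjusted p 0.0381). They lost their calls in 18 and 8 of 20 fits without 1 library, and with the mitochondrial share as covariate they were 0.11 (adjusted p 0.713) and -0.06 (adjusted p 0.887). Of its partners, Col9a2 ranged from 1.77 to 12.8 TPM over all libraries. Col9a3 was at 12.5 to 24.6 TPM in parental cells and 5.71 to 9.75 TPM in the control libraries, a log2 difference of -1.11 ± 0.21 (adjusted p 0.0055), and exons of the antisense gene Tcfl5 cover 6.07% of its exon bases; Col9a2 and Col9a3 passed in neither shHIRA comparison with the controls.

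Col19a1, a fibril-associated chain whose gene lies beside Col9a1 on chromosome 1, was at 0.0787 to 0.838 TPM with shHIRA I and at 0.299 to 0.733 TPM with shHIRA II, against 0.0274 to 0.168 TPM in the control libraries and 0.0221 to 0.304 TPM in parental cells. Its log2 fold changes were 2.36 ± 0.52 (SE, adjusted p 0.00341) and 2.49 ± 0.52 (adjusted p 0.0014). They rest on few counts in the control libraries, 2.25 to 14 with shLuciferase and 3.62 to 6.81 with shScramble. Against parental cells the changes were 1.32 (adjusted p 0.157) and 1.44 (adjusted p 0.0862). The remaining tested members of this class, Col7a1, Col8a1, Col8a2, Col9a2, Col9a3, Col23a1, Col26a1 and Col28a1, passed in neither comparison, with log2 fold changes between -0.06 and 1.74 for shHIRA I and between -0.81 and 0.88 for shHIRA II.

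The pooled mean of both shHIRA groups, the comparison the design implies, gave 9 members higher and 3 lower, beside 14.1% and 15% of all genes. Of the members that differed between hairpins, Col1a2, Col2a1, Col27a1, Col6a3, Col12a1, Col16a1, Col17a1 and Col20a1 were not among them. Col5a1, Col4a4, Col1a1 (2.11, adjusted p 0.00429) and Col10a1 (-0.66, adjusted p 0.0167) were. Against the control hairpins, Col1a1 was called with shHIRA I alone and Col10a1 with shHIRA II alone. A pooled call is therefore not a call with both hairpins. Against parental cells shHIRA I gave 8 higher and 3 lower (9.93% and 6.82% of all genes) and shHIRA II gave 6 higher and 7 lower (14.4% and 14.9%). The 3 lower with shHIRA I were Col15a1, Col9a3 and Col10a1. The 7 lower with shHIRA II were Col1a2, Col15a1, Col6a3, Col12a1, Col14a1, Col16a1 and Col10a1. Among the latter, Col15a1 (-0.96, adjusted p 0.0246), Col6a3 (-2.59, adjusted p 0.0122) and Col12a1 (-1.45, adjusted p 0.0446) had not passed with shHIRA II against the control hairpins. Of the members called with shHIRA I against the control hairpins, Col4a2 (0.75, adjusted p 0.235), Col6a3 (1.43, adjusted p 0.146), Col9a1 (0.61, adjusted p 0.135), Col12a1 (1.11, adjusted p 0.154) and Col19a1 did not pass against parental cells. Of those called with shHIRA II, Col2a1 (0.70, adjusted p 0.133), Col4a2 (1.09, adjusted p 0.0553), Col4a3 (-0.51, adjusted p 0.0801), Col4a4 (0.38, adjusted p 0.328), Col9a1 (0.59, adjusted p 0.109) and Col19a1 did not. The control hairpins themselves differed from parental cells in 3 members, with Col18a1 and Col8a2 higher and Col9a3 lower, beside 2.05% and 1.56% of all genes. Col8a2, a short chain of the corneal Descemet's membrane, changed by 1.62 ± 0.44 (SE, adjusted p 0.0447). Without parental replicate 2, 3 or 4 or shScramble replicate 3, 0 members were called higher there by edgeR.

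The genes that act on collagens were read from 4 lists. The shares of all genes higher and lower, against which their counts stand, were 10.8% and 8.8% for shHIRA I, 15.7% and 16.6% for shHIRA II, and 8.56% and 12.4% for the difference between hairpins. With shHIRA II, 3 of 17 lower in the first list, 1 of 10 in each direction in the second and 1 of 7 higher in the last are near or below these shares. In the list of collagen folding and hydroxylation, where prolyl and lysyl hydroxylases and chaperones modify new chains, 7 of 17 tested rose and 2 fell with shHIRA I, 4 rose and 3 fell with shHIRA II, and 1 rose and 6 fell in shHIRA II minus shHIRA I. The list medians were 0.50, -0.11 and -0.41. Colgalt2, which adds galactose to hydroxylysine, had mean levels of 1.7 ± 1.01 TPM with shLuciferase, 1.41 ± 0.143 with shScramble, 6.95 ± 3.7 with shHIRA I and 1.12 ± 0.19 with shHIRA II. Its log2 fold change was 2.05 ± 0.28 (SE, adjusted p 5.14e-05) with shHIRA I and -0.54 ± 0.3 (adjusted p 0.179) with shHIRA II. Sparc, a matrix protein that binds fibrillar collagens, rose by 1.24 ± 0.2 (adjusted p 0.000271) with shHIRA I and was at 0.03 ± 0.21 (adjusted p 0.925) with shHIRA II. P3h2, a prolyl 3-hydroxylase, rose by 1.24 ± 0.25 (adjusted p 0.00152) with shHIRA I, and P3h3 by 1.52 ± 0.38 (adjusted p 0.00512) with shHIRA II.

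In the list of procollagen processing and crosslinking, 3 of 10 tested rose and none fell with shHIRA I, and 1 rose and 1 fell with shHIRA II. The lysyl oxidases, which crosslink collagen, gave 3 of the named genes. Loxl1 went from 1.5 ± 0.564 TPM with shLuciferase and 1.3 ± 0.583 with shScramble to 5.86 ± 1.06 with shHIRA I and 1.66 ± 0.343 with shHIRA II, log2 fold changes of 1.97 ± 0.25 (SE, adjusted p 2.53e-05) and 0.17 ± 0.26 (adjusted p 0.652). Lox rose by 3.05 ± 0.74 (adjusted p 0.00643) with shHIRA I, where its mean was 0.651 TPM, and Loxl2 by 1.18 ± 0.4 (adjusted p 0.0289) with shHIRA II. Tll2, a protease of the procollagen C-proteinase family, rose by 2.28 ± 0.47 (adjusted p 0.00187) with shHIRA I and differed between hairpins by -2.36 ± 0.58 (adjusted p 0.00753).

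Of 10 collagen receptors, 2 rose and 3 fell against the control hairpins in each shHIRA comparison. The receptor kinase Ddr2 rose by 1.56 ± 0.25 (SE, adjusted p 0.000233) and 1.92 ± 0.25 (adjusted p 2.05e-05), from 3.28 ± 0.862 and 2.09 ± 0.809 TPM in the control groups to 8.52 ± 4.4 and 10.6 ± 3.04 TPM. It was also higher with control hairpins than in parental cells, by 1.32 ± 0.28 (adjusted p 0.013). Of the integrin chains, Itga1 and Itga2 fell, with log2 fold changes of -1.18 ± 0.24 (adjusted p 0.00186) and -1.20 ± 0.24 (adjusted p 0.00102) for Itga1, and of -1.07 ± 0.34 (adjusted p 0.0323) and -1.50 ± 0.35 (adjusted p 0.00308) for Itga2. Itga10, Itga11 and Itgb1 passed in neither comparison, and Itgb1 was lower in shHIRA II minus shHIRA I (-0.52 ± 0.18, adjusted p 0.0426). The endocytic receptor Mrc2 rose by 1.29 ± 0.48 (adjusted p 0.0468) with shHIRA II. The direct difference between hairpins did not pass for Ddr2, Itga1, Itga2 or Mrc2.

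In the list of collagen degradation, 4 of 7 tested rose and 1 fell with shHIRA I, and 1 rose and 2 fell with shHIRA II. The gelatinase Mmp2 rose in both, by 1.34 ± 0.19 (SE, adjusted p 7.92e-05) and 0.57 ± 0.19 (adjusted p 0.0314). Mmp14, a membrane collagenase, rose by 0.86 ± 0.15 (adjusted p 0.000698) with shHIRA I and was at -0.12 ± 0.16 (adjusted p 0.59) with shHIRA II. Mmp15 followed the direction of Col1a2, at 0.66 ± 0.22 (adjusted p 0.041) and -0.76 ± 0.23 (adjusted p 0.0183). The protease Fap fell, with log2 fold changes of -2.72 ± 0.62 (adjusted p 0.00436) and -4.62 ± 0.77 (adjusted p 0.000195), from means of 0.577 and 0.597 TPM in the control groups.

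Markers of other cell types also differed between groups, and not always in the direction of the fibrillar sum. The 11 fibroblast and mesenchyme markers summed to 15.4 to 28.2 TPM in parental cells, 15.4 to 39.4 TPM with shLuciferase, 16.3 to 30.3 TPM with shScramble, 43.3 to 99.3 TPM with shHIRA I and 6.58 to 12 TPM with shHIRA II. Dcn, which binds collagen fibrils, had the highest mean of the list in all groups but shHIRA II, where Pdgfrb was at 3.76 TPM and Dcn at 3.66 TPM. It rose by 1.34 ± 0.27 (SE, adjusted p 0.00143) with shHIRA I and fell by 2.47 on the log2 scale (adjusted p 2.14e-05) with shHIRA II. Of the 7 genes of the list that were tested, 4 rose and 1 fell with shHIRA I, beside 10.8% and 8.8% of all genes. With shHIRA II, 2 rose and 4 fell, beside 15.7% and 16.6%. Dpt, Thy1, Twist1 and Prrx1 stayed below 0.5 TPM in every library. The 6 smooth muscle and pericyte markers summed to 10.8 to 14.3 TPM in parental cells, 11.3 to 47.1 TPM with shLuciferase, 13 to 13.9 TPM with shScramble, 34.5 to 68.5 TPM with shHIRA I and 23.8 to 37.4 TPM with shHIRA II, and Rgs5 and Cspg4 stayed below 0.5 TPM in every library. Schwann cell markers summed to 205 to 423 TPM over the parental and control libraries, 98.5 to 347 TPM with shHIRA I and 165 to 179 TPM with shHIRA II. The 4 endothelial markers summed to 0.474 to 1.08 TPM in parental cells, 1.23 to 2.47 TPM with shLuciferase, 0.786 to 1.13 TPM with shScramble, 1.82 to 6.61 TPM with shHIRA I and 1.39 to 2.92 TPM with shHIRA II. Of the 2 tested, Tek rose with shHIRA I (2.43 ± 0.79, adjusted p 0.0366), and Cdh5 and Kdr stayed below 0.5 TPM in every library. The leukocyte list summed to at most 5.05 TPM in any library, with Ptprc and Cd3e below 0.5 TPM throughout. The part of these markers in the collagen values was not tested, and in bulk RNA a change in the number of cells of a type and a change of RNA per cell cannot be told apart.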

How the data were processed

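Poly(A) RNA-seq of melb-a cells was analysed from the authors' gene tables. Estimated counts per gene, with decimals, were deposited by the authors beside TPM values. The submitters' processing notes name mm10, kallisto, edgeR and bcl2fastq. Tool versions, the annotation and strandedness of counting: not given in the sources used here. In 12767 genes, count and TPM agreed up to 1 factor per library and 1 length per gene within 0.0098 on the log2 scale. Columns were matched to groups by name; those that name a control but no hairpin were assigned to parental cells, and shHIRA columns with no numeral to shHIRA I, by elimination. Of the gene names, 27 had become spreadsheet dates and were not named.

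Estimated counts were rounded and tested with edgeR 4.0.16 (R 4.3.3): quasi-likelihood F test, TMM scaling, a group-means model over 20 libraries, genes with 10 counts in 4 libraries, and Benjamini-Hochberg adjustment over 13639 genes, called at 0.05. Errors of fold changes are SE of the fit. Alternatives used DESeq2 1.42.0, limma 3.58.1 on log2(TPM + 0.5), other scalings, filters, covariates and left-out libraries. Totals of 15 to 20.7 M counts (M, 1000000) were available per library. Values by library are given for tested members with a mean of 1 TPM in any group that were called in a shHIRA contrast, and by range for other members described; of the pathway lists (older symbols matched, such as Leprel2 for P3h3), up to 4 called genes with the largest change. Members and lists were chosen with earlier results of these data known. Positions and exon overlaps come from GENCODE M21 (GRCm38). At most 2.75% of the 31-base words of a tested member occurred in transcripts of other genes on the same strand. Deviations of same-numbered replicates from their group means correlated at -0.3 to 0.42 over 40 pairs. In 16 pairs the correlation was above 0.1, the highest being replicate 2 of shLuciferase and shHIRA I (0.42) and replicate 1 of shLuciferase and shScramble (0.41). Since not every pair was above 0.1 and no label states a shared source, replicate numbers were not used as pairs.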

Additional observations from a re-analysis of the deposited data

Results flagged for a closer look

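In groups of 4 libraries, the gap between an extreme library and its nearest neighbour exceeded Dixon's 95% critical share of the range of the group in 11 of 90 groups checked; chance gives about 1 in 20. Replicate 2 of shLuciferase was high for Col1a1 (1.6 TPM), Col5a1 (11.4 TPM), Col27a1 (8.17 TPM) and Col12a1 (35.2 TPM), and replicate 2 of shHIRA I for Col5a3 (2.36 TPM) and Col27a1 (19.8 TPM). The other values were Col1a1 in shScramble replicate 1 (0.426 TPM), Col1a2 in shScramble replicate 2 (5.45 TPM, low), Col5a1 in shHIRA II replicate 2 (8.9 TPM, low), Col15a1 in shLuciferase replicate 1 (25.7 TPM) and Col14a1 in shScramble replicate 4 (30.5 TPM).

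The hairpins against Hira differed from each other, by the edgeR test of the difference, in 12 members. Of the 31 tested, 2 were higher and 10 lower, beside 8.56% and 12.4% of all genes. The 2 higher are near the share of all genes. The log2 fold change of shHIRA II minus shHIRA I was -3.07 for Col1a1, -2.42 for Col1a2, -1.19 for Col5a1, -1.79 for Col27a1, -0.89 for Col4a4 and -4.02 for Col6a3. It was -2.56 for Col12a1, -0.68 for Col16a1, -0.90 for Col10a1 and -2.41 for Col17a1, and it was positive for Col2a1 (1.35) and Col20a1 (2.49). Since Hira fell with shHIRA I alone, the difference in Hira level and any other difference between the hairpins cannot be told apart in this design.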

How the results depend on the processing

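Of 40 called log2 fold changes of single members, 23 were called in every alternative that could be computed and 26 in every fit without 1 library. Col9a1 in shHIRA II minus control hairpins changed sign, to -0.06, with the mitochondrial share as covariate; the cause was not tested. Counts that moved by more than 1.5 times follow. For shHIRA II minus control hairpins, lower members numbered 5, and 8 by DESeq2 and 1 with the mitochondrial covariate (2 to 7 without 1 library, 2 without shHIRA II replicate 1). In shHIRA II minus shHIRA I, 2 higher and 10 lower members became 1 and 6 with only these groups fitted (2 to 3 and 6 to 12 without 1 library; 6 without shHIRA I replicate 2 or shHIRA II replicate 4). For the pooled shHIRA groups, 3 lower members became 1 by limma on log2 TPM and 0 with the mitochondrial covariate, by edgeR. For control hairpins minus parental, 2 higher members became 1 without a filter on low counts, 0 by limma and 1 with only these groups (0 to 3 without 1 library; 0 without parental replicate 2, 3 or 4 or shScramble replicate 3). There, 1 lower member became 2 by DESeq2, with the mitochondrial covariate, without the 2 libraries of lowest mitochondrial share and with only these groups, and 3 without both high libraries, an alternative chosen after seeing the data (1 to 2 without 1 library; 2 without shLuciferase replicate 2, shScramble replicate 1 or shHIRA I replicate 2 or 3). For shHIRA I minus parental, 8 higher and 3 lower became 5 and 1 with only these groups (7 to 9 and 2 to 3). For shHIRA II minus parental, 6 higher became 10 by limma (5 to 8), and 7 lower became 4 by limma and 4 with the mitochondrial covariate (4 to 9; 4 without parental replicate 2 or shHIRA II replicate 4). For shHIRA I minus control hairpins, 12 higher members ranged from 9 to 12 without 1 library and 1 lower stayed 1; for shHIRA II 10 higher ranged from 7 to 12, and for both pooled 9 higher from 7 to 10.

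With the replicate number as a block, lower members in control hairpins minus parental became 2, and no other count of calls moved by more than 1.5 times; among the 40 single changes, 2 lost their calls (Col4a2 and Col9a1 with shHIRA I). The labels state no pairing by number, and not every same-numbered pair deviated together.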
